A study of Mus musculus with 30 samples.

Results

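Neurons edited to delete exon 5 of Puf60 were compared with neurons edited to include it at all times. The comparison used 4 of the 30 libraries of the series, chosen by their sample titles, and autosomal genes and splicing events only: 13442 of the 13938 genes tested, and 21504 events tested of 641813 autosomal events listed. All lines were clonal derivatives of CGR8, a mouse embryonic stem cell line, edited with CRISPR-Cas9. By the labels, exon 5 is deleted from both alleles in Puf60_mEx5_HOM and constitutive on both in Puf60_pEx5_HOM, and the unedited parental line (WT) was the common background. The fits also held Puf60_pEx5_HET, heterozygous for the constitutive exon, and Rbm38KO, in which the gene Rbm38 was knocked out. The expression fit further held the same 5 lines as stem cells (ESC) and as embryoid bodies of day 8 (EB8). The libraries are polyA-selected RNA from neurons at 7 days in vitro (DIV7), which the labels call glutamatergic, grown from embryoid bodies that had received 6 µM retinoic acid. Each group had 2 libraries, A and B, so n = 2 for every mean and SD below. The series text mentions 2 independent clones, but the labels do not tie a library to a clone. The p-values therefore measure a spread between libraries, which may or may not also be a spread between clones. That spread was pooled over all 30 libraries for genes and over the 10 DIV7 libraries for events. A property of 1 clone cannot be told apart from an effect of the exon.

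PUF60 is an RNA-binding protein that recognises pyrimidine-rich tracts at the 3' ends of introns and works with U2AF to recruit the U2 snRNP, the step that commits an intron to splicing. Its exon 5 is a cassette exon, one that the spliceosome can join or skip, and the 2 homozygous lines were edited to move that choice in opposite directions. Splicing choices of this kind change during the formation of neurons, where many short exons are switched on.

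A few exons with large, well-covered responses are shown first. Those of Dync1li2, Kif3a and Atp8a1 were chosen after their values were seen. Each sequence runs 5′ to 3′ from GENCODE vM21 transcripts on GRCm38 (the same assembly as mm10), with the exon in capitals and 15 bases of each neighbouring exon in lower case. All 6 are whole coding exons in that annotation, as is the edited exon 5 of Puf60, 51 nt long on the minus strand at chr15:76074607-76074657. The exons less included in Puf60_mEx5_HOM are the 21-nt exon of Cacna2d2 (chr9:107519179-107519199, plus strand), a microexon, and the 120-nt exon of Braf (chr6:39646725-39646844, minus strand). The exons more included there are the 42-nt exon of Dync1li2 (chr8:104423586-104423627, minus strand) and the 72-nt exon of Kif3a (chr11:53588689-53588760, plus strand). Atp8a1 has a pair of 74-nt exons, the first at chr5:67780988-67781061 and the second at chr5:67778960-67779033, both on the minus strand, which share their flanks and changed in opposite directions.
Cacna2d2 21-nt exon: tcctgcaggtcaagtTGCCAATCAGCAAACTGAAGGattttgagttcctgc
Braf 120-nt exon: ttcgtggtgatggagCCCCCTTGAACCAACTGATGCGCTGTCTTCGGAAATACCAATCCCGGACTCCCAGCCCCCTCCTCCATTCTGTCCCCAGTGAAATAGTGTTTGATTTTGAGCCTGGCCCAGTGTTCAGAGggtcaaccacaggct
Dync1li2 42-nt exon: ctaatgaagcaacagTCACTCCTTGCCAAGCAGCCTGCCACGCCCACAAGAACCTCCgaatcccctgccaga
Kif3a 72-nt exon: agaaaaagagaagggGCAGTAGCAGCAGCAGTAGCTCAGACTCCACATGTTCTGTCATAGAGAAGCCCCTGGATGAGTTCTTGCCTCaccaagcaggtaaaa
Atp8a1 first 74-nt exon: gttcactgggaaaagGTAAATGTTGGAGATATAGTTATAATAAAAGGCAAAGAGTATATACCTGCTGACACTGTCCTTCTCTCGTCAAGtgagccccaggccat
Atp8a1 second 74-nt exon: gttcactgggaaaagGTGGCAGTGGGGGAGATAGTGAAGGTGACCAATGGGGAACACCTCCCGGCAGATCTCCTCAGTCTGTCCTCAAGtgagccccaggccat
One guide RNA named in the labels for both homozygous designs is 20 nt long and matched 0 of 11 Puf60 transcripts on either strand; its place in the gene was not analysed here.
Puf60 guide Up1: ctttgcagcaggaccggcga

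Depth was 23204150 and 25156839 spliced reads in the Puf60_mEx5_HOM libraries and 28655479 and 26946562 in the Puf60_pEx5_HOM libraries. A gene's level is its exon-exon junction read count scaled to library size (CPM). Log2 fold changes were taken of CPM + 1, so those of weakly expressed genes come out too small. Inclusion is percent spliced in (PSI), the share of junction reads that include an exon or retain an intron. A gene was called where limma's p, after Benjamini-Hochberg adjustment, was under 0.05 and the change at least 2-fold, and an event where it was under 0.05 with a difference of at least 10 PSI points. In the sentences below, log2 values are Puf60_mEx5_HOM over Puf60_pEx5_HOM, and PSI differences are Puf60_mEx5_HOM minus Puf60_pEx5_HOM.

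Exon 5 was included little in Puf60_mEx5_HOM and almost fully in Puf60_pEx5_HOM. Inclusion of exon 5 was 9.83 and 12.93 PSI in libraries A and B of Puf60_mEx5_HOM, against 94.78 and 93.15 in Puf60_pEx5_HOM and 42.9 and 43.95 in WT. The difference was -82.6 points (limma adjusted p = 4.61e-11). The reads behind the remaining inclusion in Puf60_mEx5_HOM were one-sided. Its libraries held 0 and 1 reads over the upstream junction of the exon, 133 and 183 over the downstream junction and 540 and 549 over the skipping junction. The files do not describe the order of these counts, and the sides were read from separate events at the splice sites of the exon, whose coordinates are given. In Puf60_pEx5_HOM the same junctions held 610 and 685, 931 and 1062, and 39 and 59 reads. At the 3' splice site, where exon 5 is joined to the exon before it, 1 and 1 reads were listed in Puf60_mEx5_HOM, against 308 and 343 in Puf60_pEx5_HOM. At the 5' splice site, on the downstream side, the counts were 114 and 163 against 572 and 618. What the reads on the downstream side in Puf60_mEx5_HOM come from was not tested.

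Puf60 RNA itself was lower in Puf60_mEx5_HOM. Puf60 had 166 and 180.0 CPM in Puf60_mEx5_HOM, against 288 and 291 CPM in Puf60_pEx5_HOM and 243 and 264 CPM in WT. The lines did not overlap, and the log2 fold change was -0.74 ± 0.07 (SE, limma adjusted p = 3.84e-07), short of the 2-fold needed for a call. Junctions of exon 5 enter this sum. The authors' RPKM per group, which does not rest on these sums, was 77.97 in Puf60_mEx5_HOM and 110 in Puf60_pEx5_HOM.

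**Figure D1:**
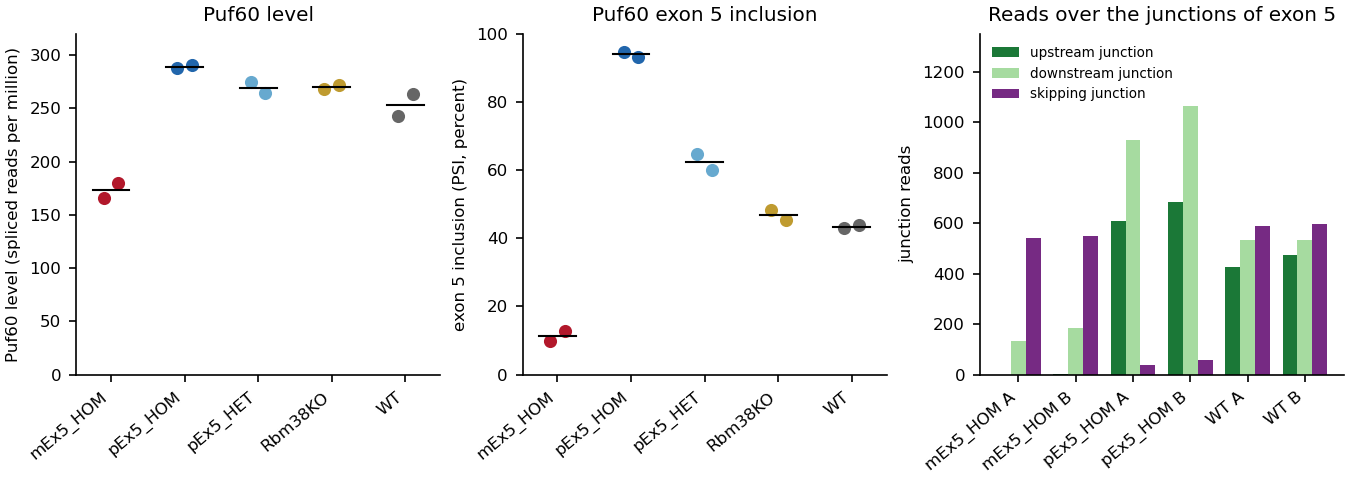
Left, Puf60 level in CPM in the 5 groups at DIV7; centre, PSI of exon 5 in percent; right, reads over the 3 junctions of exon 5 in 6 libraries. Points are libraries and bars on the left and centre are group means. Exon 5 was at 9.83 and 12.93 PSI in Puf60_mEx5_HOM with 0 and 1 upstream junction reads, against 94.78 and 93.15 PSI in Puf60_pEx5_HOM.

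Both lines made neurons by their markers, and other cell types were unevenly represented. The summed level of 6 neuronal markers (Tubb3, Map2, Rbfox3, Snap25, Stmn2 and Elavl3) was 3686 and 3885 CPM in Puf60_mEx5_HOM and 3273 and 3707 CPM in Puf60_pEx5_HOM. The 4 glutamatergic markers summed to 654 and 719 CPM against 643 and 670 CPM, and the 4 GABAergic or glycinergic markers, which the label does not name, to 872 and 871 CPM against 805 and 871 CPM. Markers of fibroblasts and muscle (5 genes, 3 of them called higher) summed to 4229 and 1406 CPM in Puf60_mEx5_HOM and 449 and 276 CPM in Puf60_pEx5_HOM. Nearly all of this sum came from the 3 collagens Col1a1, Col1a2 and Col3a1. The muscle markers Acta2 and Tagln had log2 values of -0.68 and -0.80 and were not called. Astrocyte markers (5 genes, 3 called higher) summed to 389 and 284 CPM against 143 and 85.1 CPM. Stem cell markers (4 genes, 3 called lower) summed to 34.9 and 35.4 CPM against 108 and 159 CPM. The oligodendrocyte, progenitor and endothelial markers each summed to at most 76.7 CPM in these libraries. Microglial markers were near 0, with Cx3cr1 at 0 in all 4 libraries. In bulk RNA a different number of cells of a type and a different amount of RNA per cell cannot be told apart, which applies to every gene group below.

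Of the autosomal genes, 205 were higher in Puf60_mEx5_HOM (1.53% of those tested) and 161 were lower (1.2%), together 366 genes (2.72%). By size of change among genes of at least 5 RPKM, Aqp8, Gfap and Gkn2 led the higher side, with 3 collagens further down, and Rasgrf1, Dppa5a and Pou5f1 led the lower side, the last 2 of them pluripotency genes. The libraries of the lines did not overlap for 205 of the 205 higher genes and 160 of the 161 lower genes, against 57.9% of all genes tested. The median over all genes was -0.03. The authors' RPKM per group differed in the same direction for 204 of 204 higher genes and 158 of 160 lower genes that it lists by a unique name. Library choice moved the counts: 129 higher and 183 lower genes were called without Puf60_mEx5_HOM A, and 158 and 132 without Puf60_pEx5_HOM B.

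**Figure D2:**
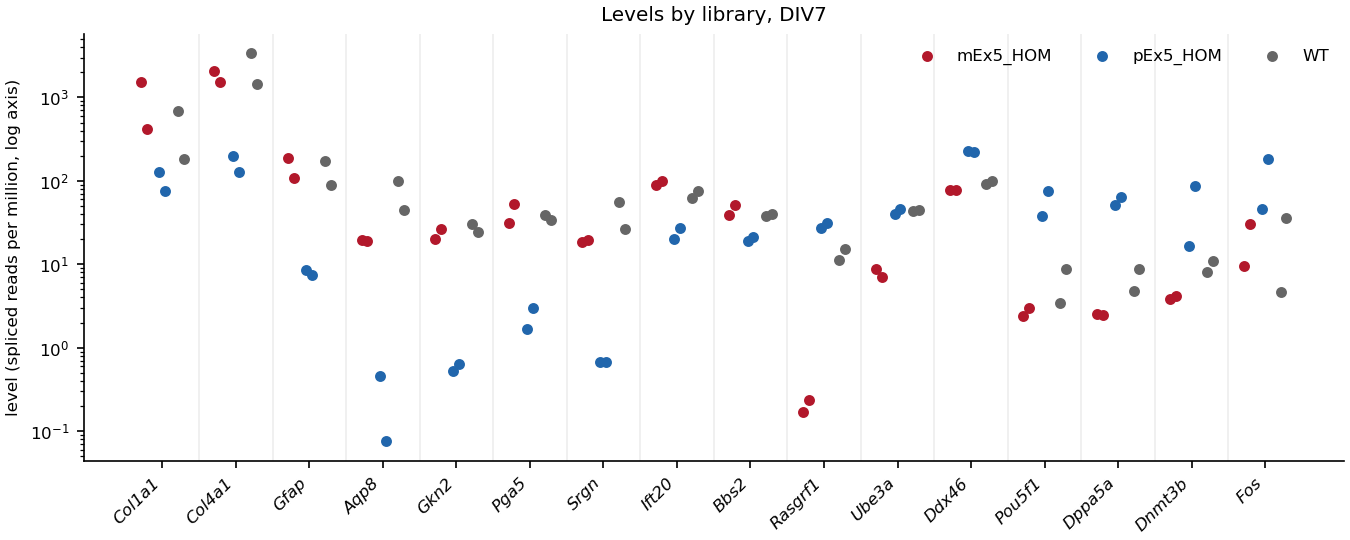
Level of 16 genes in CPM on a log axis in Puf60_mEx5_HOM (left), Puf60_pEx5_HOM (middle) and WT (right) of each column, 1 point per library. Rasgrf1 was at 0.169 and 0.235 CPM in Puf60_mEx5_HOM and 27.4 and 31.2 CPM in Puf60_pEx5_HOM, and Gkn2 at 20.0 and 26.2 CPM against 0.532 and 0.640 CPM.

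Neuronal genes were counted in 7 lists, to be read beside the 2.72% called among all genes. Of 28 tested genes of the synaptic vesicle cycle, 23 glutamatergic genes, 17 GABAergic or glycinergic genes and 32 genes of synaptic and axonal adhesion, 0 were called in either direction. Their median log2 fold changes were 0.09, 0.24, 0.09 and 0.28. Of 27 pan-neuronal genes only Nefm, the medium neurofilament subunit, was called. Nefm had 26.7 and 30.2 CPM in Puf60_mEx5_HOM against 56.9 and 60.6 CPM in Puf60_pEx5_HOM (log2 -1.02 ± 0.13, limma adjusted p = 1.74e-05). The call was lost without Puf60_mEx5_HOM A (log2 -0.94) or Puf60_pEx5_HOM B (-0.98), and 0 of the 27 were called with libraries scaled to their total or by quantiles. Among 29 voltage-gated ion channel genes 1 was higher, Cacna2d1, an auxiliary subunit of calcium channels, with 36.4 and 34.3 CPM against 14.9 and 16.9 CPM (log2 1.11 ± 0.16, limma adjusted p = 8.09e-05). Robo3, a receptor that lets commissural axons cross the midline, was the 1 lower gene of 34 for axon guidance, at 1.31 and 0.981 CPM in Puf60_mEx5_HOM, 3.94 and 4.03 CPM in Puf60_pEx5_HOM and 6.04 and 4.23 CPM in WT.

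Pluripotency genes were lower in Puf60_mEx5_HOM, with WT on its side. Of 25 tested genes 17 were lower and 1 higher, with a median log2 fold change of -2.004. Pou5f1, the core transcription factor of stem cells, had 2.40 and 2.98 CPM in Puf60_mEx5_HOM, 38.1 and 75.6 CPM in Puf60_pEx5_HOM, and 3.46 and 8.76 CPM in WT. Every Puf60_pEx5_HOM value lay above the Puf60_mEx5_HOM and WT libraries, and the log2 fold change was -3.89 ± 0.84 (limma adjusted p = 0.00469). The heterozygous line Puf60_pEx5_HET had 6.33 CPM in library A and 53.4 CPM in library B, so a single group can also be split on this gene.

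Dppa5a, a stem cell RNA-binding protein gene, had 2.53 and 2.43 CPM against 51.7 and 64.3 CPM (log2 -4.07 ± 0.78, limma adjusted p = 0.00199). Nanog, another core pluripotency factor, had 0.380 and 0.942 CPM against 7.69 and 10.4 CPM (log2 -2.61 ± 0.52). Dnmt3b, a de novo DNA methyltransferase, had 3.88 and 4.12 CPM in Puf60_mEx5_HOM and 16.6 and 87.6 CPM in Puf60_pEx5_HOM, where library B was far above library A. Without that library its log2 was -1.82 (limma adjusted p = 0.157), and the call was also lost without Puf60_mEx5_HOM A (-2.95, 0.0651) or Puf60_mEx5_HOM B (-3.02, 0.0543). The member that went the other way was Klf4, with a log2 fold change of 1.05, not called without Puf60_mEx5_HOM A or without Puf60_pEx5_HOM A. Other lower genes of the same early embryonic kind were Lefty1 (log2 -2.97 ± 0.49), an inhibitor of Nodal signalling, Tdgf1 (-2.78 ± 0.61), a Nodal co-receptor, and Tdh (-2.98 ± 0.54), threonine dehydrogenase. For Tdgf1 the call was lost without Puf60_pEx5_HOM B (log2 -1.93, limma adjusted p = 0.07). The count of lower pluripotency genes was 12 without Puf60_pEx5_HOM B and 6 in a fit of the 10 DIV7 libraries alone.

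Replication genes leaned the same way. Of 31 cell cycle genes 4 were lower and 0 higher, and 30 of the 31 had a log2 below 0, with a median of -0.69. Mcm3, a subunit of the replicative helicase, had 35.9 and 32.5 CPM against 77.7 and 82.4 CPM (log2 -1.21 ± 0.23, limma adjusted p = 0.0012). Cdc20, which activates the anaphase-promoting complex, had 25.6 and 23.3 CPM against 50.8 and 61.2 CPM (log2 -1.16 ± 0.23). The number of called members was 0 in the fit of the 10 DIV7 libraries. Slc2a1, the main glucose transporter of many cells, was the 1 lower gene of 22 for hypoxia and glycolysis, at 28.9 and 24.99 CPM against 88.5 and 130 CPM.

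Of the lists not described elsewhere, 0 members were called among cholinergic and monoaminergic neurons (13 tested), forebrain and midbrain patterning (8), microglia and blood (4), contractile genes (18), nonsense-mediated decay (14), the unfolded protein response (19), interferon response (14), cholesterol synthesis (18), Wnt, Bmp and hedgehog signalling (29) and glutathione genes (13). The counts of higher and lower members were 0 and 2 of 18 neuropeptides, 1 and 0 of 19 progenitor genes, 1 and 1 of 30 interneuron and spinal cord factors, 0 and 1 of 22 Hox genes, and 1 and 2 of 18 retinoic acid response genes. They were 1 and 1 of 13 endothelial, 1 and 0 of 11 neural crest, 0 and 1 of 13 choroid plexus, 0 and 1 of 24 p53 response and 2 and 0 of 27 cilia genes, the last being Ift20 and Bbs2.

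Immediate early genes, which neurons and other cells switch on within minutes of stimulation, were lower in 6 of 12 cases and higher in 0. Fos had 9.53 and 30.4 CPM in Puf60_mEx5_HOM, 45.4 and 183 CPM in Puf60_pEx5_HOM, and 4.61 and 35.4 CPM in WT (log2 -2.35 ± 0.73, limma adjusted p = 0.0328). Npas4, a transcription factor specific to neuronal activity, had 3.25 and 6.95 CPM against 10.6 and 81.4 CPM (log2 -2.41 ± 0.62, limma adjusted p = 0.0126). Nr4a1 had 11.5 and 16.6 CPM against 28.9 and 124.3 CPM. Library B was the higher one in all of these groups, and Puf60_pEx5_HOM B stood far above the rest. Without Puf60_pEx5_HOM B none of the 12 genes was called, and the log2 values were -1.35 for Fos (limma adjusted p = 0.293), -1.002 for Npas4 (0.178) and -1.01 for Nr4a1 (0.0527). Without Puf60_mEx5_HOM A, 3 were called, with Fos at -1.56 (limma adjusted p = 0.269) and Npas4 at -1.96 (0.114). A fit of the 10 DIV7 libraries, or of the 4 compared, called 0. Egr1 and Arc, members of the same list, had log2 values of 0.52 and -0.31 and were not called.

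**Figure D3:**
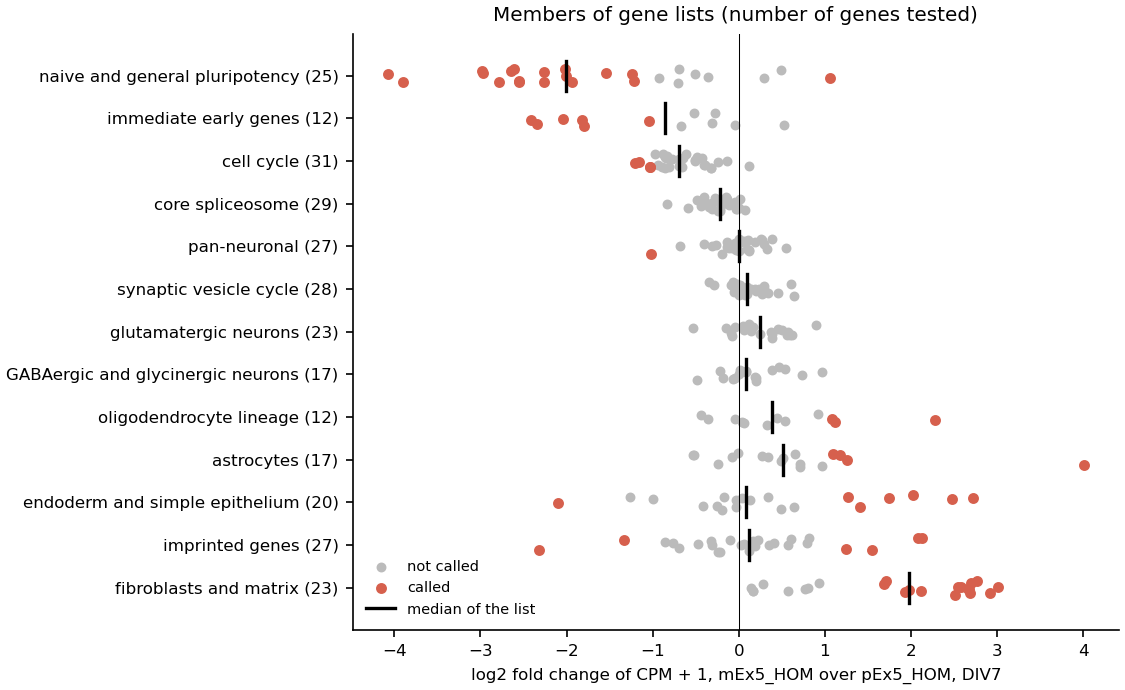
Log2 fold change of CPM + 1, Puf60_mEx5_HOM over Puf60_pEx5_HOM at DIV7, for members of 13 gene lists. Each point is a gene, red where called, and the black bar is the list's median, from -2.004 for pluripotency to 1.97 for fibroblasts and matrix. The 4 neuronal lists have medians between 0.00 and 0.24.

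Collagen and other matrix genes were higher in Puf60_mEx5_HOM. Of 23 tested genes of fibroblasts and matrix 15 were higher and 0 lower, with a median log2 fold change of 1.97, and all 23 lay above 0. Col1a1, the main chain of fibrillar collagen, had 1510.4 and 413 CPM in Puf60_mEx5_HOM, 127 and 74.6 CPM in Puf60_pEx5_HOM, and 681 and 183 CPM in WT (log2 3.01 ± 0.68, limma adjusted p = 0.00606). Library A was above library B in each of these groups, and the lines did not overlap. Col3a1 had 1650.4 and 656 CPM against 200.4 and 129 CPM (log2 2.69 ± 0.62). Thbs2, thrombospondin 2, had 86.9 and 29.9 CPM against 5.88 and 5.88 CPM (log2 2.92 ± 0.37, limma adjusted p = 4.19e-05). Postn, the matrix protein periostin, had 184 and 77.0 CPM against 18.7 and 19.5 CPM (log2 2.58 ± 0.45). The 3 chains of collagen VI, Col6a1, Col6a2 and Col6a3, had log2 values of 2.66, 2.70 and 2.67. Without Puf60_mEx5_HOM A, 11 members were called and Col1a1 was at 2.08 (limma adjusted p = 0.0918). Without Puf60_pEx5_HOM B, 11 were called and Col1a1 was at 2.63 (0.0528). A fit of the 4 libraries alone called 4. The summed fibroblast and muscle markers rest on Col1a1, Col1a2 and Col3a1, themselves matrix genes, so they are no separate measure. The part of such cells in the result was not tested.

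Several further genes with large changes were high in both Puf60_mEx5_HOM and WT. Col4a1, a basement membrane collagen, had 2080 and 1515 CPM in Puf60_mEx5_HOM, 197 and 127 CPM in Puf60_pEx5_HOM, and 3388 and 1429 CPM in WT (log2 3.48 ± 0.37, limma adjusted p = 9.92e-06). Lamb1, a laminin chain, had 351 and 253 CPM against 48.5 and 40.8 CPM (log2 2.72 ± 0.38). Gata4, a transcription factor of endoderm and heart, had 5.53 and 5.85 CPM against 0.142 and 0.264 CPM (log2 2.48 ± 0.36). It had 1.47 and 2.96 CPM in Puf60_pEx5_HET and 1.46 and 5.81 CPM in Rbm38KO, where the libraries were split. Of 20 tested genes of endoderm and simple epithelium 6 were higher and 1 lower, with a median of 0.09 and 11 above 0 against 9 below. The 5 endoderm markers, of which 1 was called higher, summed to 25.3 and 21.03 CPM in Puf60_mEx5_HOM against 23.3 and 35.3 CPM in Puf60_pEx5_HOM. The lower gene was Cdh1, epithelial cadherin, with 7.47 and 5.89 CPM against 20.4 and 49.1 CPM (log2 -2.10 ± 0.45), not called without Puf60_pEx5_HOM B (log2 -1.49, limma adjusted p = 0.0587).

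Aqp8, a water channel of gut epithelia, had 19.4 and 19.2 CPM in Puf60_mEx5_HOM, 0.461 and 0.0753 CPM in Puf60_pEx5_HOM, and 98.3 and 45.3 CPM in WT (log2 4.02 ± 0.53, limma adjusted p = 8.4e-05). The stomach proteins Gkn2 and Gkn1 had log2 values of 3.91 ± 0.40 and 3.21 ± 0.33, and the pepsinogen gene Pga5 3.67 ± 0.48. Srgn, the secretory granule proteoglycan serglycin, had 18.5 and 19.5 CPM against 0.674 and 0.678 CPM (log2 3.58 ± 0.49). The calls for Aqp8, Gkn1, Gkn2, Pga5, Srgn, Col4a1, Lamb1 and Gata4 were kept without any 1 of the 4 libraries. Each was lower in Puf60_pEx5_HOM than in WT (log2 -3.19 to -5.76), and none differed between Puf60_mEx5_HOM and WT by the call rule.

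Glial genes were higher in Puf60_mEx5_HOM in part. Of 17 astrocyte genes 4 were higher and 0 lower, with a median of 0.51. Gfap, the intermediate filament of astrocytes, had 189 and 108 CPM in Puf60_mEx5_HOM, 8.61 and 7.34 CPM in Puf60_pEx5_HOM, and 173 and 88.8 CPM in WT (log2 4.01 ± 0.60, limma adjusted p = 0.000255). Both Puf60_mEx5_HOM libraries lay far above both Puf60_pEx5_HOM libraries and beside WT. Gfap had 32.6 and 117.5 CPM in Puf60_pEx5_HET and 22.2 and 98.0 CPM in Rbm38KO, so libraries of a single group can be split on it. Aqp4, the water channel of astrocyte endfeet, had 2.95 and 2.39 CPM against 0.567 and 0.490 CPM (log2 1.26 ± 0.15). Apoe, an astrocyte lipid carrier, had 176 and 91.9 CPM against 67.2 and 45.9 CPM (log2 1.18 ± 0.31), and its call was lost without Puf60_mEx5_HOM A (log2 0.71, limma adjusted p = 0.187) or Puf60_pEx5_HOM B (0.91, 0.121). Gja1, Glul and Slc1a2, also in the list, had log2 values of -0.08, -0.01 and 0.51 and were not called. Of 12 oligodendrocyte lineage genes 3 were higher: Pdgfra (log2 2.27 ± 0.49), a growth factor receptor, and the transcription factors Olig2 (1.11 ± 0.28) and Sox10 (1.08 ± 0.37). None of these 3 was called without Puf60_pEx5_HOM B (log2 1.24, 0.51 and 0.44), and Olig2 (0.77) and Sox10 (0.76) were not called without Puf60_mEx5_HOM A. Astrocyte genes called numbered 2 without Puf60_mEx5_HOM A, 2 without Puf60_pEx5_HOM B and 8 without Puf60_pEx5_HOM A. The summed astrocyte and oligodendrocyte markers include Gfap, Aqp4, Pdgfra and Sox10, so they are no separate measure. The oligodendrocyte markers summed to 76.7 and 47.8 CPM against 31.1 and 8.29 CPM. The part of such cells in the result was not tested.

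Some imprinted genes, of which only the copy from 1 parent is active, were called, and Rasgrf1 and Ube3a kept their calls without any 1 of the 4 libraries. Rasgrf1, a Ras exchange factor expressed from the paternal copy, had 0.169 and 0.235 CPM in Puf60_mEx5_HOM, 27.4 and 31.2 CPM in Puf60_pEx5_HOM, and 11.3 and 15.0 CPM in WT (log2 -4.65 ± 0.13, limma adjusted p = 1.23e-16). The WT libraries lay between the lines, and no library of one line came near the other. Rasgrf1 was also near 0 in the remaining lines: 0.126 and 0.114 CPM in Puf60_pEx5_HET, and 0.324 and 0.213 CPM in Rbm38KO, a line in which the RNA-binding protein gene Rbm38 was knocked out. At the earlier stages it was at 0.263 CPM or less in both homozygous lines.

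Ube3a, the ubiquitin ligase that neurons express mainly from the maternal copy, had 8.73 and 6.98 CPM in Puf60_mEx5_HOM, 39.9 and 46.4 CPM in Puf60_pEx5_HOM, and 43.0 and 44.3 CPM in WT (log2 -2.32 ± 0.12, limma adjusted p = 1.18e-11). Puf60_pEx5_HET and Rbm38KO had 50.2 and 49.8 CPM, and 60.1 and 54.6 CPM, so Puf60_mEx5_HOM alone stood low. In stem cells Ube3a had 45.5 and 44.9 CPM against 53.8 and 49.0 CPM, and in embryoid bodies 47.2 and 45.5 CPM against 55.6 and 43.5 CPM. The DIV7 difference exceeded that in stem cells by -2.14 and that in embryoid bodies by -2.23 on the log2 scale, both called.

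Of 27 tested genes of the imprinted list, which does not hold Rasgrf1, 4 were higher and 2 lower, and the median was 0.11. H19, a maternally expressed noncoding RNA, and its neighbour Igf2, a paternally expressed growth factor, had log2 values of 2.08 ± 0.39 and 2.13 ± 0.45. Dlk1, a paternally expressed Notch-related membrane protein, had 340.1 and 140 CPM in Puf60_mEx5_HOM, 71.1 and 77.2 CPM in Puf60_pEx5_HOM, and 37.6 and 27.96 CPM in WT (log2 1.54 ± 0.29). Plagl1, a paternally expressed transcription factor, was at 1.25 ± 0.23, and Peg10, a paternally expressed gene of retroviral origin, at -1.33 ± 0.29. Without Puf60_mEx5_HOM A 1 of the 4 higher genes was called, with Igf2 at 1.50 (limma adjusted p = 0.0627), Dlk1 at 0.90 and Plagl1 at 0.83.

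Genes of the splicing machinery are again to be read beside the 2.72% called among all genes. Of 29 core spliceosome genes and 30 genes of SR proteins and hnRNPs 0 were called. In each of these lists 26 members had a log2 below 0, and the medians were -0.22 and -0.20, against -0.03 over all genes. Of 20 genes that act at the 3' splice site with U2AF 1 was lower, Ddx46, the RNA helicase that helps the U2 snRNP bind the branch site. Ddx46 had 78.3 and 77.1 CPM in Puf60_mEx5_HOM, 229 and 224 CPM in Puf60_pEx5_HOM, and 91.6 and 99.2 CPM in WT (log2 -1.53 ± 0.08, limma adjusted p = 2.51e-11). The libraries of each line lay within a few CPM of each other. At the stem cell stage it had 309 and 301 CPM against 574 and 509 CPM, and in embryoid bodies 157 and 149 CPM against 321 and 326 CPM. The log2 values there were -0.82 and -1.08, so that the change passed 2-fold in embryoid bodies and neurons, and the lines did not overlap at any stage. Among 33 further splicing regulators only Esrp1, an epithelial factor, was called, at 0.717 and 0.706 CPM against 2.55 and 4.93 CPM, and not without Puf60_pEx5_HOM B (log2 -1.05, limma adjusted p = 0.0964).

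A small set of genes differed at every stage. The same contrast called 215 higher and 110 lower genes in stem cells (1.6% and 0.818% of those tested) and 942 and 396 in embryoid bodies (7.01% and 2.95%). Of the 205 genes higher at DIV7, 25 were also called higher in stem cells, 40 in embryoid bodies and 11 at all 3 stages. Of the 161 lower genes the counts were 7, 49 and 1. The contrast at DIV7 differed from that in stem cells, by a limma test of the difference, for 475 genes (3.53%). The 1 gene lower throughout was Wfdc2, a secreted protease inhibitor (log2 -1.17, -1.96 and -1.50 at ESC, EB8 and DIV7). Among the 11 higher ones were Col1a1, Col1a2, Col3a1, Col5a2, Col16a1 and Postn, and 3 genes with narrow spread between libraries: Ift20, H13 and Rbm4.

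Ift20, a subunit of the complex that carries cargo into cilia, had 88.8 and 101 CPM in Puf60_mEx5_HOM, 20.2 and 27.1 CPM in Puf60_pEx5_HOM, and 62.9 and 75.5 CPM in WT at DIV7 (log2 1.97 ± 0.11, limma adjusted p = 4.94e-11). In stem cells it had 45.2 and 48.4 CPM against 7.01 and 7.38 CPM, and in embryoid bodies 51.1 and 51.5 CPM against 10.1 and 11.2 CPM (log2 2.54 and 2.17). H13, an intramembrane protease that cleaves signal peptides, had 88.3 and 82.9 CPM against 36.7 and 44.4 CPM at DIV7, with log2 values of 1.19, 1.07 and 1.06 over the 3 stages. Rbm4, an RNA-binding splicing regulator with a near-identical neighbour, Rbm4b, had 11.5 and 11.4 CPM against 4.71 and 5.01 CPM, with log2 values of 1.80, 1.15 and 1.09. None of these groups overlapped at any stage. Without Puf60_pEx5_HOM A, H13 was at 0.93 and no longer past 2-fold.

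**Figure D4:**
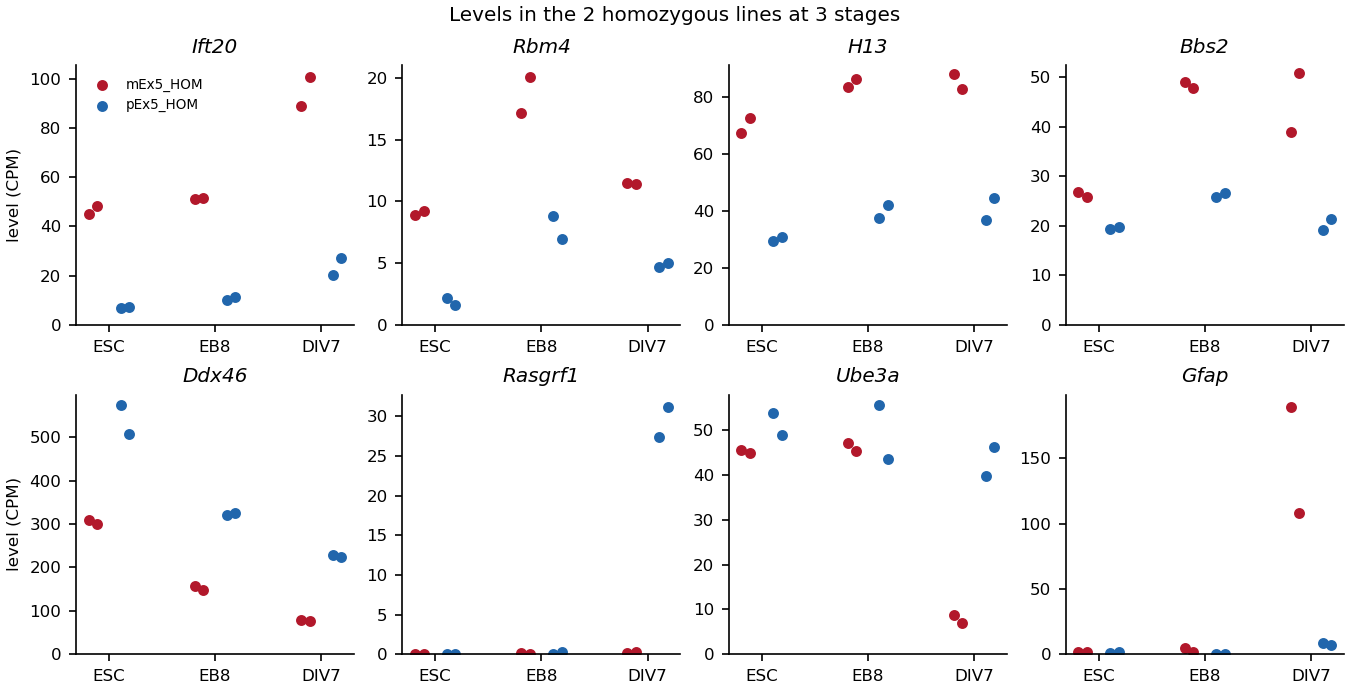
Level in CPM of 8 genes in Puf60_mEx5_HOM (left of each pair) and Puf60_pEx5_HOM at 3 stages, 1 point per library, each axis starting at 0. At each stage every Puf60_mEx5_HOM library lay above every Puf60_pEx5_HOM library for Ift20, Rbm4, H13 and Bbs2, and below for Ddx46, while Rasgrf1, Ube3a and Gfap separated clearly at DIV7, with Ube3a at 8.73 and 6.98 CPM against 39.9 and 46.4 CPM.

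The same 3 genes, and Bbs2, also spliced differently, each with less intron left in Puf60_mEx5_HOM where the level was higher. In Ift20 a short intron (chr11:78540999-78541360) was retained at a PSI of 5.57 and 5.76 in Puf60_mEx5_HOM, 35.63 and 36.41 in Puf60_pEx5_HOM, and 14.73 and 12.42 in WT (difference -30.4 points, limma adjusted p = 4.92e-07). Behind these values stood 263 and 425 reads that spliced the intron in Puf60_mEx5_HOM, against 56 and 62 in Puf60_pEx5_HOM, while the reads that crossed its boundaries were 24 and 43 at one end and 7 and 9 at the other, against 46 and 48, and 16 and 23. The files do not say which end is which. Retention of this intron was 3.93 and 3.95 against 29.73 and 38.67 PSI in stem cells, and 7.6 and 10.92 against 46.88 and 48.45 PSI in embryoid bodies. The libraries of the lines did not overlap at any stage.

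Bbs2, a subunit of the ciliary BBSome, had 39.0 and 50.8 CPM against 19.2 and 21.4 CPM (log2 1.10 ± 0.11, and 0.91 without Puf60_mEx5_HOM B). Its 145-nt coding exon had a PSI of 99.16 and 98.95 against 81.36 and 82.09, and the introns on its sides were at 2.22 and 4.82 against 19.19 and 26.21, and at 2.99 and 2.37 against 19.05 and 18.03. The call for the second of these introns was lost whichever of the 4 libraries was left out (limma adjusted p = 0.0585 to 0.16). Rbm4 had a 1793-nt intron at 2.06 and 4.26 against 26.32 and 11.11 PSI, a call lost without Puf60_mEx5_HOM A, Puf60_mEx5_HOM B or Puf60_pEx5_HOM A (limma adjusted p = 0.125, 0.1 and 0.304). H13 had a 4964-nt intron at 13.21 and 17.2 against 45.38 and 26.06 PSI, also lost without those libraries (0.104, 0.0684 and 0.111), and a 2476-nt intron at 12.96 and 15.17 against 32.29 and 26.32 PSI, whose boundary reads were unequal in all 4 libraries and whose call was lost without Puf60_mEx5_HOM A (0.0527) or Puf60_pEx5_HOM A (0.0853). The spliced reads of an intron enter both its PSI and the gene's CPM, so these measures are not independent. The authors' RPKM, made another way, was 93.3 against 25.03 for Ift20, 12.8 against 6.89 for Bbs2, 30.7 against 9.02 for Rbm4 and 52.1 against 30.1 for H13. The 4964-nt intron of H13 was at 44.17 and 32.19 PSI in Puf60_pEx5_HET, 32.72 and 34.42 in Rbm38KO and 23.08 and 21.78 in WT. The 2476-nt one was at 38.46 and 37.97, 30.26 and 26.07, and 19.08 and 19.86 PSI in the same groups. In all, 11 genes had both a call in expression and a called event. Dlk1, among them, was higher in level with more of a 292-nt intron left, at 93.81 and 91.39 against 36.63 and 44.19 PSI. Its boundary reads were unequal in all 4 libraries.

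Events were called in both directions in near equal number: 351 had a higher PSI in Puf60_mEx5_HOM (1.63% of those tested) and 336 a lower one (1.56%), together 687 events (3.19%) in 549 named genes. Cassette exons were called most often, with 206 higher and 165 lower of 7092 (2.9% and 2.33%, together 5.23%), and microexons of 3 to 27 nt with 5 higher and 14 lower of 424 (1.18% and 3.3%, together 4.48%). Retained introns had 86 higher and 96 lower of 7590 (1.13% and 1.26%, together 2.4%), alternative 3' splice sites 42 and 52 of 3681 (1.14% and 1.41%, together 2.55%), and alternative 5' splice sites 12 and 9 of 2717 (0.442% and 0.331%, together 0.773%). The median size of a called difference was 18.7 points. Library choice mattered here too: 148 higher and 191 lower events were called without Puf60_mEx5_HOM B, 155 and 193 without Puf60_pEx5_HOM A, and 227 and 186 without Puf60_mEx5_HOM A.

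Among cassette exons, lengths that keep the reading frame made up 101 of the 206 more included exons (49.0%), 96 of the 165 less included ones (58.2%) and 46.1% of all tested. For microexons the shares were 4 of 5, 14 of 14 and 82.3%. Called introns were short when retained more in Puf60_mEx5_HOM, with a median of 330.0 nt, and long when retained less, with a median of 1350.5 nt, against 620.5 nt over all tested introns. Sites 3 nt apart, at which the spliceosome picks between a pair of neighbouring AGs, were called in 0.832% of 961 cases, and 3' sites over 30 nt apart in 4.12% of 1480.

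WT lay between the lines at 628 of the 687 called events (91.4%), against 40.4% of all events tested, and closer to Puf60_mEx5_HOM at 500. Of the called genes it lay between the lines for 127 of 205 higher and 142 of 161 lower ones, against 41.4% of all genes. Called events and genes were chosen for a gap between the lines, which by itself places another group between them more often. The shares over all events and genes are therefore no fair baseline, and a graded effect was not tested. Against WT the fits called 22 higher and 23 lower genes in Puf60_mEx5_HOM (0.164% and 0.171%), and 116 and 226 in Puf60_pEx5_HOM (0.863% and 1.68%). These comparisons share the WT libraries and are given side by side only.

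The largest fall after exon 5 was in Asap2, which encodes a GTPase-activating protein for Arf proteins. For its 135-nt coding exon (chr12:21256475-21256609), PSI was 6.23 and 6.48 in Puf60_mEx5_HOM, 64.25 and 78.38 in Puf60_pEx5_HOM, and 30.9 and 37.58 in WT (difference -65.0 points, limma adjusted p = 2.62e-06). In embryoid bodies the exon was at 0.59 and 1.29 against 18.37 and 19.27. The 120-nt exon of Braf, a kinase of the MAP kinase cascade, had 27.83 and 32.41 against 83.24 and 72.98 PSI, with 39.34 and 49.82 in WT (difference -48.0 points, limma adjusted p = 5e-05). Its values in embryoid bodies overlapped, at 10.21 and 17.51 against 19.12 and 14.66. The 21-nt exon of Cacna2d2, an auxiliary subunit of voltage-gated calcium channels, had 29.18 and 30.16 against 81.14 and 73.81 PSI, and 46.93 and 46.94 in WT (difference -47.8 points, limma adjusted p = 5.31e-06).

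A 228-nt exon of Syt7, a calcium sensor for vesicle release, was at 11.84 and 11.84 against 56.65 and 56.45 PSI. The fifth exon of this set lay in Rab3il1, an exchange factor for Rab proteins, at 21.05 and 40 against 70.73 and 79.66 PSI, and its call was lost without Puf60_mEx5_HOM A (limma adjusted p = 0.138) or Puf60_pEx5_HOM B (0.0565). The calls for Asap2, Braf, Cacna2d2 and Syt7 were kept without any 1 of the 4 libraries. In each of these 4 exons both Puf60_mEx5_HOM libraries lay below both WT libraries, and both Puf60_pEx5_HOM libraries above them.

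The 5 exons that rose most rested on fewer reads. Rtel1, a helicase that protects telomeres, had a 78-nt exon at 69.85 and 67.91 against 24.17 and 17.25 PSI (difference 48.2 points, limma adjusted p = 0.000145, 75 to 107 reads per library), called in every fit that left out a library. Fam183b had a 60-nt exon at 100 and 100 against 52.38 and 30, on 13 to 32 reads, and Tyk2, a Janus kinase, an 88-nt exon at 100 and 84 against 31.03 and 45.45, on 15 to 38 reads. Slc35b3, a sugar nucleotide transporter, had a 155-nt exon at 86.67 and 76.88 against 20 and 41.67, and Gm45871 a 61-nt exon at 100 and 100 against 36.98 and 65.52. The calls for Fam183b, Tyk2 and Gm45871 were lost when either Puf60_mEx5_HOM library was left out (limma adjusted p = 0.0948 to 0.211). Those for Tyk2 (0.187), Gm45871 (0.101) and Slc35b3 (0.0609) were lost without Puf60_pEx5_HOM A.

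Exons with more reads rose nearly as far, and those that follow were chosen after their values were seen. The 42-nt exon of Dync1li2, a light intermediate chain of the dynein motor, had 75.05 and 73.27 PSI in Puf60_mEx5_HOM, 26.49 and 34.45 in Puf60_pEx5_HOM, and 62.93 and 59.73 in WT, on 761 to 966 reads (difference 43.7 points, limma adjusted p = 8.03e-06). A 117-nt exon of Pcm1, a protein of centriolar satellites, was at 84.65 and 87.59 against 46.39 and 43.5 PSI. The 72-nt exon of Kif3a, a kinesin motor of cilia and axons, was at 49.81 and 42.01 against 9.99 and 7.65 PSI, with 23.96 and 29.61 in WT. In embryoid bodies the Kif3a exon was almost absent, at 3.31 and 2.88 against 0.19 and 0.27. Poldip3, an adaptor in mRNA export, had an 87-nt exon at 71.16 and 71.49 against 29.78 and 37.78 PSI. All 4 were called in every fit that left out a library.

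**Figure D5:**
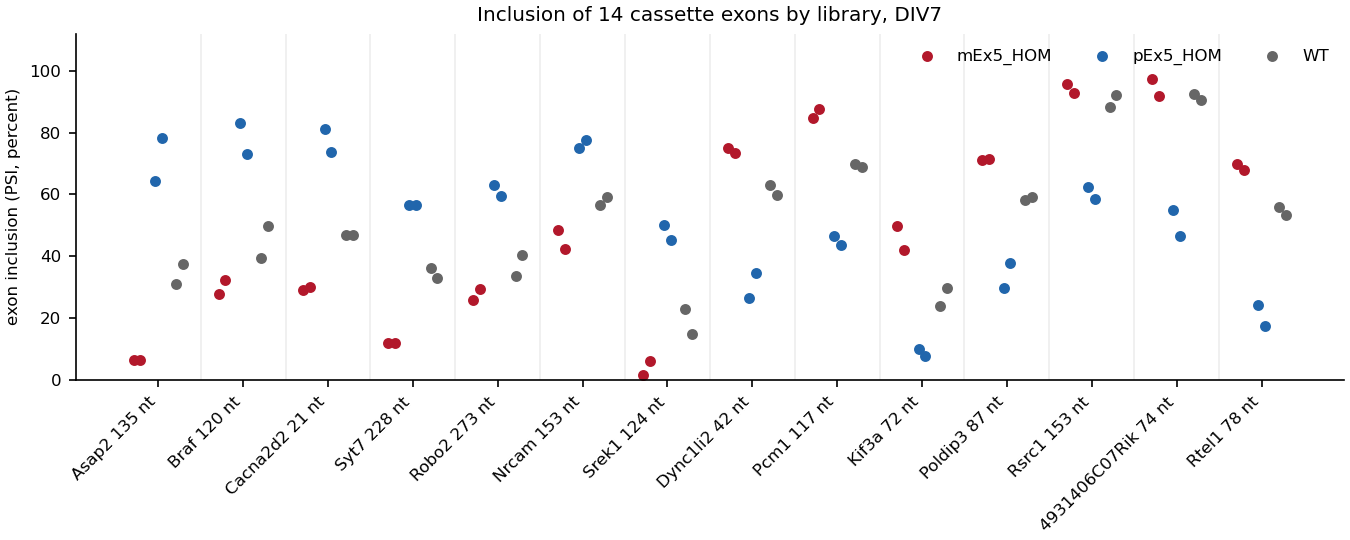
Inclusion in percent (PSI) of 14 cassette exons in Puf60_mEx5_HOM (left), Puf60_pEx5_HOM (middle) and WT (right) of each column, 1 point per library. WT lies between the lines or beside Puf60_mEx5_HOM, as for Asap2 with 6.23 and 6.48 PSI in Puf60_mEx5_HOM, 64.25 and 78.38 in Puf60_pEx5_HOM and 30.9 and 37.58 in WT.

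Genes of neuronal contact and of splicing were among the called exons that were looked at after their values were seen. Robo2, a receptor for Slit guidance cues, had a 273-nt exon at 25.75 and 29.21 against 63.11 and 59.56 PSI (difference -33.9 points, limma adjusted p = 7.41e-05). Nrcam, an adhesion molecule of axons, had 2 exons of 126 and 153 nt that fell together, by 35.3 and 30.9 points. The pair of 74-nt exons of Atp8a1, a phospholipid flippase, moved against each other: the first had 67.59 and 67.87 against 32.15 and 31.83 PSI, and the second 34.2 and 39.18 against 72.91 and 71.61 PSI. Their differences were 35.7 and -35.6 points (limma adjusted p = 0.000219 and 0.0007), and in each library their PSI values added up to about the whole.

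Srek1, which encodes an SR-related splicing regulator, had a 124-nt exon at 1.66 and 5.98 against 49.99 and 45.21 PSI, with 22.83 and 14.86 in WT (limma adjusted p = 0.00019). Clk1 and Clk4, kinases that phosphorylate SR proteins, had exons of 91 and 88 nt at 54.08 and 46.08 against 78.27 and 88.05, and at 32.99 and 32 against 58.85 and 71.64 PSI. Both of those calls were lost without Puf60_mEx5_HOM B (limma adjusted p = 0.0712 and 0.0507). At Hnrnph1, an hnRNP that binds G-rich RNA, an alternative 5' splice site 42 nt away was used at 18.25 and 22.13 against 48.78 and 40.06 PSI, on 1149 to 1536 reads (difference -24.2 points, limma adjusted p = 1.56e-05).

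Alternative 3' splice sites are the choice nearest to the known site of action of PUF60. In Dhdds, an enzyme of dolichol synthesis, a site 58 nt away rose to 60.42 and 71.11 PSI in Puf60_mEx5_HOM, against 30.08 and 25.85 in Puf60_pEx5_HOM (difference 37.8 points, limma adjusted p = 2.29e-05). In Glyr1, a chromatin reader, the site 3 nt away was used at 66.6 and 70.07 against 37.19 and 33.98 PSI, and the one 21 nt away at 31.27 and 27.67 against 61.56 and 65.76 PSI (both limma adjusted p = 2.93e-06). The other sites named by size of change were in Camk2a (45.1 points) and Prrt1 (39.4), which rose, and in Mmaa (-57.9) and Ankhd1 (-46.4), which fell. They rested on 14 to 47 reads, and each lost its call in at least 1 of the fits that left out a library.

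Retained introns were called in both directions. Meaf6, a subunit of histone acetyltransferases, had a 5291-nt intron at 69.75 and 80.15 PSI in Puf60_mEx5_HOM, 14.98 and 23.39 in Puf60_pEx5_HOM, and 54.28 and 58.82 in WT (difference 55.8 points, limma adjusted p = 0.000154). Introns of Rabep2 and BC051142 differed by 61.2 and 59.0 points on as few as 11 and 10 reads, and lost their calls without Puf60_pEx5_HOM A (limma adjusted p = 0.0655 and 0.0835) or Puf60_mEx5_HOM B (0.0631 and 0.164). That of BC051142 was also lost without Puf60_mEx5_HOM A (0.102) or Puf60_pEx5_HOM B (0.0766). On the other side, Nfrkb, a subunit of a chromatin remodelling complex, had a 538-nt intron at 11.76 and 20.69 against 80 and 72.97 PSI, and Fam213a a 9494-nt intron at 27.86 and 28.81 against 74.72 and 71.88 PSI. A called alternative 3' splice site of Fam213a, 17 nt away (chr14:41004182-41004220), overlaps the end of that intron. It fell alike, at 38.68 and 37.85 against 85.09 and 82.34 PSI. Whether the intron's value reflects that site choice was not tested. The balance p that the deposited table gives for the reads at an intron's boundaries was under 0.05 in all 4 libraries for Fam213a and in 3 of 4 for Nfrkb, so that much of each value rests on 1 side. It was also under 0.05 for Rabep2 in both Puf60_mEx5_HOM libraries (0.0247 and 0.009) and for Meaf6 in Puf60_mEx5_HOM B (0.0459).

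By their medians, the genes that hold a called intron differed little in level, though single genes among them, such as Ift20 and Rbm4, differed much. By the authors' RPKM, 77 genes with an intron retained more in Puf60_mEx5_HOM had a median log2 ratio of -0.04 (42 below 0 and 35 above), 85 with an intron retained less had 0.09 (35 and 50), and all 3850 genes with a tested intron had -0.02. Called events at DIV7 tended to differ in the same direction at the earlier stages, in other libraries of the same lines. Of 324 events that rose at DIV7 and had a PSI in all 4 stem cell libraries, 211 (65.1%) were higher there with no overlap and 8 lower. Of 309 that fell, 184 (59.5%) were lower and 11 higher. Among 19011 events not called at DIV7, 22.2% differed in the same direction without overlap and 12.7% in the opposite one. In embryoid bodies the shares were 79.8% for events that rose and 79.6% for those that fell. Among 20493 events not called at DIV7, 30.4% differed there in the same direction without overlap and 17.4% in the opposite one.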

How the data were processed

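RNA from 30 libraries (15 groups of 2) was tested, 4 of them compared here; depth sets counting error only. The authors deposited vast-tools output with percent spliced in (PSI) per library and, per the file headers, a quality string for each. These strings, of another kind than a measurement, hold junction read counts whose order the headers do not describe. They were read in the usual order of the tool, checked at exon 5 of Puf60 only. A second table deposited by the authors holds RPKM per group and their log2 fold changes with p-values (FDR) against WT, per the file headers. A table of PSI per group was not used. Salmon 0.14.1, edgeR and, as the genome build, mm10 appear in the submitters' processing notes with no role stated, and strand use in counting is not given in the sources used here, so overlapping genes cannot be separated.

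Expression was computed as exon-exon junction reads summed over 189118 introns of 25626 genes, scaled by median-of-ratios factors to CPM. Genes without introns are missed. Genes with at least 1 CPM in 2 libraries were fitted as log2(CPM + 1) with limma 3.58.1 (R 4.3.3; trend and robust; all 30 libraries, 15 residual degrees of freedom). Splicing was fitted with limma on log2 ratios of inclusion to exclusion reads, 1 read added to each, in the 10 DIV7 libraries, weighted by reads and over-dispersion. Events needed 10 reads in every DIV7 library and a mean PSI of 5 to 95. For alternative splice sites the first site of each set was left out. The p-values were adjusted over all genes or events tested, sex chromosomes included. Both fits were tested on simulated data. Replicate libraries differed by more than sampling noise in each DIV7 group. The letters A and B were not treated as pairs, since no label says that they mark a pairing and same-lettered libraries deviated together in some pairs of groups only (r = 0.37 between Puf60_mEx5_HOM and Puf60_pEx5_HOM, and -0.21 to 0.60 over all pairs).

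The groups, 40 gene lists and rules for named items were chosen with earlier results of these data known. Named genes were Puf60, the 10 higher and 10 lower called genes with the largest change, no overlap and at least 5 RPKM, up to 3 called members per list, up to 10 called at all 3 stages, and up to 10 called in both measures. Named events were exon 5, the 5 exons that changed most in each direction and the 3 in each other class; a few of these items are not reported here. Further genes and exons were added after their values were seen. Alternatives covered scaling, pseudocount, filters, libraries fitted, weights and each library left out.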

Additional observations from a re-analysis of the deposited data

Results flagged for a closer look

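The contrast of Puf60_mEx5_HOM over Puf60_pEx5_HOM differed between stages, by a limma test of the difference itself (adjusted p under 0.05 and at least 2-fold), for 475 of 13442 genes between DIV7 and stem cells and for 1348 between DIV7 and embryoid bodies. Of the 78 called genes named by rule or added to them, 24 did so against stem cells and 27 against embryoid bodies. These genes were chosen with a called change at DIV7, which itself enters the difference tested. The choice alone therefore raises these counts and the values below. Each value below is the log2 fold change at DIV7 minus that at the earlier stage.

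Against stem cells the DIV7 value was higher for Apoe (1.66), Aqp4 (1.26), Aqp8 (4.07), Col4a1 (2.84), Col6a3 (2.38), Gata4 (2.59), Gfap (3.80), Gkn1 (3.21), Gkn2 (3.91), Lamb1 (3.08), Pga5 (3.85), Srgn (3.57). It was lower for Cdc20 (-1.09), Evx1 (-1.48), Fosl2 (-2.88), Hoxb9 (-1.61), Lefty1 (-2.27), Nefm (-1.56), Peg10 (-1.79), Pmaip1 (-1.77), Rasgrf1 (-4.72), Robo3 (-1.32), Slc2a1 (-1.84), Ube3a (-2.14).

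Against embryoid bodies it was higher for Apoe (1.958), Aqp4 (1.22), Aqp8 (3.21), Col4a1 (3.36), Dlk1 (1.76), Gata4 (2.43), Gkn1 (1.67), Gkn2 (2.05), Gsn (1.68), H19 (2.21), Igf2 (3.23), Lamb1 (2.94), Olig2 (1.21), Pga5 (2.03), Plagl1 (1.86), Thbs2 (3.28). It was lower for Evx1 (-1.29), Fosl2 (-2.26), Hoxb9 (-2.55), Lefty1 (-2.25), Npas4 (-2.58), Nr4a1 (-2.37), Rasgrf1 (-4.55), Robo3 (-1.45), Tdh (-2.86), Trh (-3.19), Ube3a (-2.23). Aqp8, Col4a1, Gata4, Gkn1, Gkn2, Lamb1, Pga5, Apoe and Aqp4 were higher, and Rasgrf1, Ube3a, Fosl2, Lefty1, Evx1, Hoxb9 and Robo3 lower, relative to both earlier stages. Without Puf60_pEx5_HOM B the DIV7 call itself was lost for Apoe, Fosl2 (log2 -0.86, limma adjusted p = 0.117), Nefm, Npas4, Nr4a1, Olig2 and Pmaip1. It was lost without Puf60_mEx5_HOM A for Apoe, Dlk1, Igf2, Nefm, Npas4, Olig2 and Plagl1, without Puf60_mEx5_HOM B for Evx1 and Hoxb9, and without Puf60_pEx5_HOM A for Evx1. The stage differences were not refitted gene by gene here without those libraries.

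At 3 named events the libraries of the lines lay apart in opposite directions at DIV7 and at an earlier stage, a difference that was not tested. The alternative 5' splice site of Dctn2 had a PSI difference of -14.1 points in embryoid bodies and 30.9 at DIV7, where its call was lost without Puf60_mEx5_HOM A (19.1 points, limma adjusted p = 0.138) or Puf60_pEx5_HOM A (0.0693). That of Pmaip1 had 8.00 points in stem cells and -45.8 at DIV7, where its call was lost without Puf60_mEx5_HOM B (limma adjusted p = 0.112), Puf60_pEx5_HOM A (0.067) or Puf60_pEx5_HOM B (0.0988). The 292-nt intron of Dlk1 had -18.5 points in embryoid bodies and 52.2 at DIV7.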

How the results depend on the processing

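The fit reported called 205 higher and 161 lower genes. The counts moved by more than 1.5 times with a pseudocount of 0.25 CPM (331 and 328), with voom weights (312 and 315) and in the 10 DIV7 libraries alone (129 and 92), and ranged from 129 to 295 and from 132 to 201 with a library left out. Events numbered 351 and 336, but 76 and 74 without weights and 168 and 143 at 20 PSI points, with ranges of 148 to 274 and 186 to 251 with a library left out. Leaving out events with unbalanced junctions, chosen after the data were seen, gave 326 and 279. Puf60 kept its direction and its adjusted p under 0.05 in each alternative, from -0.80 to -0.68 with a library left out, and exon 5 ranged from -84.1 to -81.0 points. Genes whose DIV7 contrast was lower than that in stem cells numbered 270, and 461 with a pseudocount of 0.25 CPM.

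No label says that the letters A and B mark a pairing. Same-lettered libraries of Puf60_mEx5_HOM and Puf60_pEx5_HOM correlated in their deviations (r = 0.37). With the replicate block the counts were 210 higher and 168 lower genes and 342 and 340 events, Puf60 was at -0.74, exon 5 at -82.6 points, and no named gene or event lost its call. The stage counts with the block were 229 and 310 against stem cells, and 438 and 954 against embryoid bodies. No named gene or event changed direction in any alternative. Named genes lost calls most often in the 10 DIV7 libraries alone (32 of 78), in the 4 libraries compared alone (28), without Puf60_pEx5_HOM B (27) and without Puf60_mEx5_HOM A (23). The cause was not tested. The 2 libraries per group and low junction counts limit what smaller differences could be seen.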

Other observations

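Values outside the comparison of the homozygous lines are given for the other DIV7 groups. Exon 5 of Puf60 had a PSI of 64.87 and 60.08 in Puf60_pEx5_HET and of 48.4 and 45.27 in Rbm38KO. In Puf60_pEx5_HET the mean was 43.5 PSI for the exon of Asap2, 51.7 for Braf, 55.5 for Cacna2d2 and 48.0 for Dync1li2, between the means of the homozygous lines. It was 100 and 100 PSI for Gm45871 and 100 and 86.05 for Fam183b in the same line. Dlk1, which was higher in Puf60_mEx5_HOM than in Puf60_pEx5_HOM, was at 3.77 and 2.50 CPM in Puf60_pEx5_HET and at 49.7 and 47.7 CPM in Rbm38KO. Its 292-nt intron event had 0 and 0 reads at one boundary and 1121 and 467 at the other in Puf60_mEx5_HOM, against 6 and 2, and 194 and 188, in Puf60_pEx5_HOM. The spliced reads over the same stretch were 37 and 22 against 173 and 120.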
